A study of Mus musculus with 6 samples.

Results

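The growth hormone and STAT5 axis of the liver was examined in wild-type (WT) mice and in mice lacking HMGB2 (HMGB2-KO), a DNA-bending chromatin protein. It was represented by 10 genes chosen by name: Ghr, Igf1, Igfals, Socs2, Cish, Stat5a, Stat5b, Bcl6, Cux2 and Onecut1. Each of the 10 symbols stood on exactly 1 probe set, out of 22203 probe sets with a symbol. Total RNA from livers of male C57BL/6 mice aged 8 weeks was hybridised to Clariom S mouse arrays, with 3 arrays per genotype, and the labels name no treatment. The labels do not describe the knockout allele. They also do not state that each liver came from a separate mouse, so the spread behind the p-values is that of these 6 samples and may in part be technical. The axis was examined because it sets the level of many Cyp2c cytochrome P450 genes in liver, several of which stood lower in the HMGB2-KO livers.

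Growth hormone from the pituitary binds its receptor on hepatocytes, the receptor-bound kinase JAK2 is activated, and STAT5 proteins are phosphorylated and enter the nucleus. STAT5 there drives Igf1 and Igfals, whose products circulate together, and Socs2 and Cish, whose products shut the receptor down again. Male rodents release the hormone in pulses with quiet intervals between them and females release it more evenly, and this difference sets the sex bias of many liver genes. BCL6 is a repressor encoded by a gene that growth hormone and STAT5 hold down, CUX2 is a repressor made mainly in female liver, and ONECUT1 (HNF6) is a hepatocyte factor whose gene responds to growth hormone in rat liver.

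Sequence around annotated transcription starts was read for the members from RefSeq (GRCm38.p6), since STAT5 binds a palindrome spelled TTCNNNGAA, which reads the same on both strands. Windows ran from 250 bases before to 50 bases after a start, and 9 of the 10 members, all but Socs2, had at least 1. The motif stood in 8.3% of 32851 such windows over all genes, and in 5 of the 16 windows of the members. Counted by gene, 9.55% of all symbols and 3 of the 9 members, Cish, Bcl6 and Igfals, had it in at least 1 window. The stretches below, on the strand of the gene, show those motifs. The other members with a window, Onecut1, Cux2, Igf1, Ghr, Stat5a and Stat5b, had 0 motifs there. Capitals mark the motif.
Cish, chr9:107296659-107296678, plus strand, beginning at the annotated start: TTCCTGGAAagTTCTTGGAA
Bcl6, chr16:23981359-23981458, minus strand, before the downstream of its annotated starts: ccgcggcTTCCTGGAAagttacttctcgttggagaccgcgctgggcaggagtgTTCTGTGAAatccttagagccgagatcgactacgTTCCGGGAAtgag
Igfals, chr17:24878166-24878190, plus strand, before the middle of its annotated starts: ccaggtgTTCCTAGAAgaggccctg
Windows with 2 or more motifs made up 0.457% of all windows, and those with 3 or more 0.0335%. The Cish window held 2 motifs and the Bcl6 window shown held 3. A second Bcl6 window and a second Igfals window each held 1 further motif, whose first base lay 118 and 236 bases before the respective start. A letter match is a description and does not show that STAT5 bound there in these livers.

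The deposited numbers are taken to be on a log2 scale, with each gene already centred on a set of arrays larger than these 6, so a value of 0 is not an absence of RNA and levels of different genes cannot be ranked. For the same reason the liver label could not be checked against marker genes. Array medians were not on a common level (0.26 in WT replicate 2 against -0.05 to 0.01 in the other 5), and each array was centred on its own median. WT replicate 2 also stood apart by its SD over genes (0.53 against 0.32 to 0.36). After centring, the median of 8 hepatocyte marker genes was -0.17 in WT replicate 2 and 0.02 to 0.05 in the other arrays, so small differences are also given on the values as deposited. Leaving out the centring moves every change by the same -0.12, so a sign that turns with it is set by the scaling of all genes alike. Hmgb2, the targeted gene, stood at 0.47, 0.36 and 0.42 in WT and -0.66, -0.33 and -0.43 in the knockout livers. The groups did not overlap, and the change was -0.89 ± 0.13 (standard error, SE, n = 3 per genotype) with a limma adjusted p of 0.523. No source used here says whether its probes lie in the deleted part of the gene. Each change below is the HMGB2-KO mean less the WT mean in log2 units, and each fold rests on that reading of the scale. Among markers of other liver cells, all 10 Kupffer cell and macrophage genes lay above 0 (median change 0.17, 0 at an unadjusted p under 0.05), with a list median of 0.43, 0.21 and 0.49 in the WT arrays and 0.52, 0.42 and 0.67 in the HMGB2-KO arrays. Median changes of the endothelial, cholangiocyte, stellate cell and lymphocyte markers lay between -0.01 and 0.04. Among them 2 of 10 endothelial, 1 of 8 cholangiocyte and 1 of 10 stellate cell markers were higher at an unadjusted p under 0.05, with the highest changes of these lists at 0.63, 0.66 and 0.48, where 1.03% of all probe sets were. The part of cell make-up in the values below was not tested. In whole liver, fewer cells of a type and less RNA per cell cannot be told apart.

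No member of the axis differed between the genotypes beyond the spread between livers. Of the 10 members, 0 reached an unadjusted p under 0.05 in limma and 0 had genotype groups that did not overlap. Over all probe sets the shares were 3.83% (2.8% lower and 1.03% higher in HMGB2-KO) and 9.79%. Counts of 0 among 10 genes thus do not set the members apart from other probe sets. The median change of the members was 0.00, with 5 above and 5 below 0, and the median over all probe sets was -0.01. The limma adjusted p over all probe sets lay between 0.987 and 0.999 for the 10 members. At that adjusted level 0 of 22203 probe sets passed 0.05, against 850 at an unadjusted p under 0.05.

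**Figure D1:**
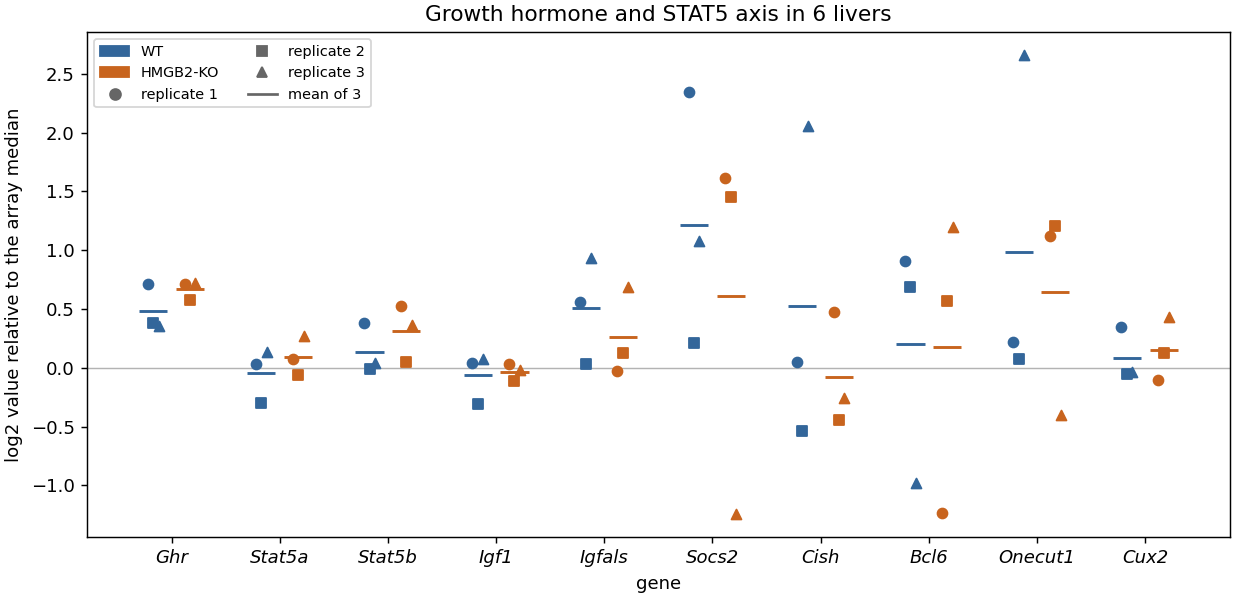
Log2 value relative to the array median (vertical axis) of the 10 axis genes (horizontal axis) in 3 WT and 3 HMGB2-KO livers; each symbol is a liver, its shape the replicate number in the title, and horizontal lines are means of 3. The genotypes overlap for all 10 genes, and Socs2, Cish, Bcl6 and Onecut1 spread far more widely than Ghr, Igf1, Stat5a or Stat5b.

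The receptor and its transducers were close to each other in the 6 livers. Ghr, the growth hormone receptor, stood at 0.71, 0.38 and 0.36 in WT replicates 1, 2 and 3 and at 0.71, 0.58 and 0.72 in HMGB2-KO replicates 1, 2 and 3. After centring, WT replicate 1 thus read like the HMGB2-KO livers, above the other WT livers. As deposited, Ghr stood at 0.727, 0.640 and 0.315 in WT and at 0.673, 0.533 and 0.675 in HMGB2-KO. There WT replicate 2 also lay inside the HMGB2-KO range, and WT replicate 3 was the low liver. The change was 0.19 ± 0.14 (SE), with a 95% interval from -0.14 to 0.51, and 0.07 on the values as deposited.

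Stat5a and Stat5b encode the closely related STAT5 proteins, of which STAT5B is the main form in liver. Stat5a stood at 0.03, -0.30 and 0.13 in WT and 0.08, -0.06 and 0.27 in HMGB2-KO, with a change of 0.14 ± 0.16 (SE, 95% interval -0.23 to 0.52). Replicate 2 was the lowest liver of each genotype, and the change was 0.02 as deposited. Stat5b stood at 0.38, -0.01 and 0.04 in WT and 0.53, 0.05 and 0.37 in HMGB2-KO. Its change was 0.18 ± 0.17 (SE, 95% interval -0.23 to 0.58), or 0.06 as deposited, and the groups overlapped throughout.

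For the secreted products of the axis, too, no genotype difference was detected beyond the spread between livers. Igf1, the circulating growth factor induced by growth hormone, stood at 0.04, -0.31 and 0.07 in WT and 0.03, -0.11 and -0.02 in HMGB2-KO. The 6 livers lay within 1.30-fold of each other. The change was 0.03 ± 0.14 (SE, 95% interval -0.31 to 0.37), and it was -0.09 as deposited, where the spread between livers of a genotype was smaller (SD 0.07 against 0.16). Igfals, the acid-labile subunit that keeps IGF1 in a stable complex in blood, stood at 0.56, 0.03 and 0.93 in WT and -0.02, 0.12 and 0.69 in HMGB2-KO. Replicate 3 was the highest liver of both genotypes. The change was -0.25 ± 0.27 (SE, 95% interval -0.88 to 0.39), and it was -0.03 without WT replicate 3 and -0.49 without WT replicate 2.

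The feedback inhibitors varied widely between livers. Socs2, which encodes a brake that targets the growth hormone receptor, stood at 2.35, 0.21 and 1.08 in WT and 1.62, 1.45 and -1.24 in HMGB2-KO. The highest and lowest livers differed 12.0-fold. HMGB2-KO replicate 3 was the lowest of all, and the other HMGB2-KO livers lay inside the WT range. The change of -0.60 ± 0.82 (SE, 95% interval -2.51 to 1.31) turned to 0.32 without that liver.

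Cish encodes a related inhibitor that occupies STAT5 docking sites, and its start is the one with paired motifs printed above. It stood at 0.05, -0.54 and 2.06 in WT and 0.48, -0.45 and -0.25 in HMGB2-KO, a 6.06-fold span. WT replicate 3 stood far above the other 5 livers. The change was -0.60 ± 0.62 (SE, 95% interval -2.04 to 0.84), and 0.17 without WT replicate 3.

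Among the transcription factors, Bcl6 divided the livers in a way that crossed genotype. It stood at 0.91, 0.68 and -0.98 in WT and -1.23, 0.57 and 1.20 in HMGB2-KO. WT replicate 3 and HMGB2-KO replicate 1 were low and the other 4 high, a 5.40-fold span overall. The genotype means were nearly equal (0.20 ± 1.03 against 0.18 ± 1.26, SD, n = 3), with a change of -0.02 ± 0.69 (SE, 95% interval -1.64 to 1.59). The sign of so small a mean difference was set by single livers: the change was 0.33 without WT replicate 1, 0.22 without WT replicate 2 and 0.68 without HMGB2-KO replicate 1.

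Onecut1 stood at 0.22, 0.08 and 2.66 in WT and 1.12, 1.21 and -0.40 in HMGB2-KO, an 8.33-fold span. WT replicate 3 was the highest and HMGB2-KO replicate 3 the lowest. The change was -0.34 ± 0.73 (SE, 95% interval -2.04 to 1.35), 0.50 without WT replicate 3 and 0.18 without HMGB2-KO replicate 3. Cux2 stood at 0.34, -0.05 and -0.04 in WT and -0.10, 0.13 and 0.43 in HMGB2-KO, so these male livers differed by at most 1.45-fold. Its change was 0.07 ± 0.18 (SE, 95% interval -0.36 to 0.50), or -0.05 as deposited. With each gene centred, it could not be told whether Cux2 stood above background in these livers.

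**Figure D2:**
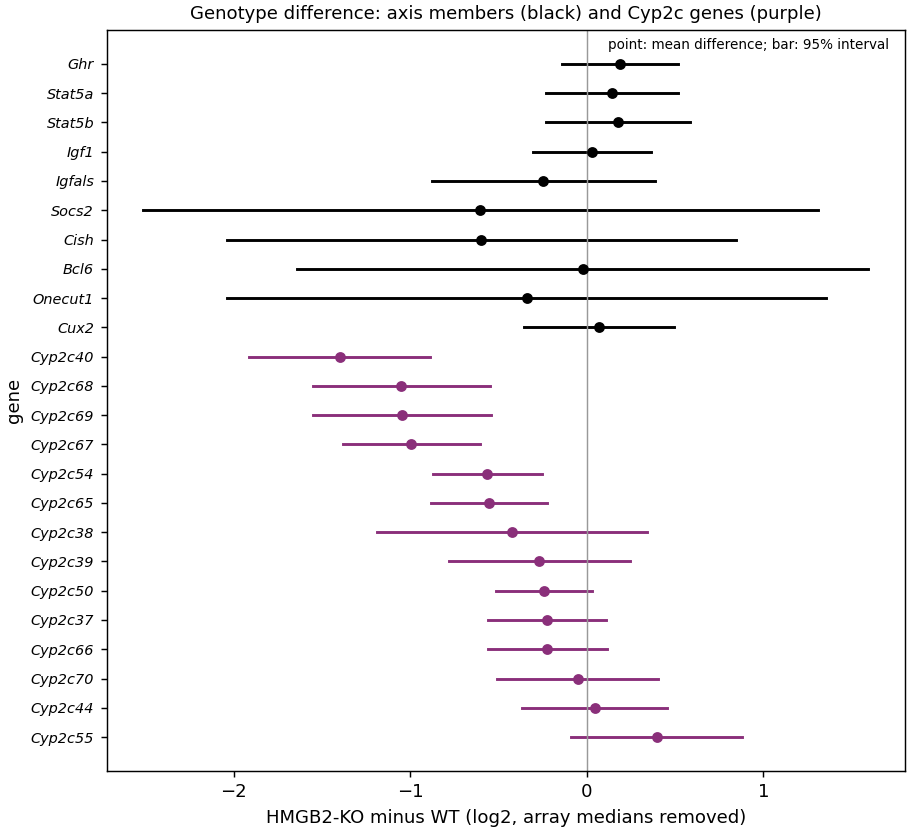
Mean difference HMGB2-KO minus WT in log2 units (horizontal axis, points) with its 95% interval (bars) for the 10 axis genes (black) and 14 Cyp2c genes (purple). All 10 intervals of the axis genes span 0, those of Socs2, Cish, Bcl6 and Onecut1 widely, while 6 Cyp2c intervals lie wholly below 0.

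The members differed among themselves in how far livers of the same genotype stood apart. The SD between livers of a genotype, pooled over both genotypes, was 1.37 for Socs2, 1.21 for Onecut1, 1.15 for Bcl6 and 1.02 for Cish. Ranked from the widest spread, these genes stood at 119, 168, 186 and 266 of 22203 probe sets. The top 5% of probe sets by spread held 4 of 10 members, the share over all probe sets being 5% by construction. Igfals followed at 0.42 (rank 2040), and Cux2, Stat5b, Stat5a, Igf1 and Ghr lay between 0.15 and 0.25, around the median of all probe sets, 0.20. The ranking was chosen after the values were seen. The count stayed at 4 without WT replicate 2, and was 3 without WT replicate 3, where Cish ranked in the top 6.81%. It was also 3 with both livers numbered 3 left out, where Onecut1 had an SD of 0.08 and no longer stood out.

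**Figure D3:**
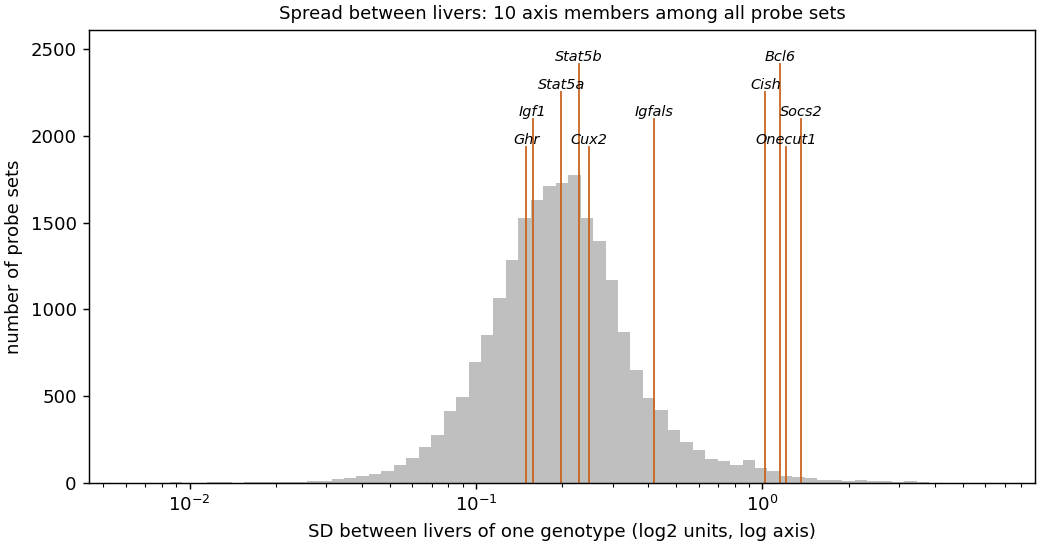
Histogram of the SD between livers of the same genotype (horizontal axis, log2 units on a log axis) over 22203 probe sets (vertical axis, number of probe sets), with vertical lines at the 10 axis genes; line heights only separate the names. Socs2, Onecut1, Bcl6 and Cish lie in the right tail at 1.02 to 1.37, and Ghr and Igf1 at 0.15 and 0.16.

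Read liver by liver, the variable genes did not move as a block. WT replicate 3 had the highest Cish and Onecut1 values and a low Bcl6. HMGB2-KO replicate 3 had the lowest Socs2 and Onecut1 values and the highest Bcl6. HMGB2-KO replicate 1 had the lowest Bcl6, with the second highest Socs2 and Cish values. WT replicate 1, by contrast, paired the highest Socs2 with a high Bcl6 and middling Cish and Onecut1. Bcl6 values fell into 4 high and 2 low livers, so no correlation across the 6 livers is given and the relation was not tested. The livers numbered 3, which share deviations over all genes (r = 0.27 across genes, which are not independent replicates), differed from each other in these genes. WT replicate 3 was above HMGB2-KO replicate 3 for Socs2, Cish and Onecut1 and below it for Bcl6, with Igf1 at 0.07 and -0.02.

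**Figure D4:**
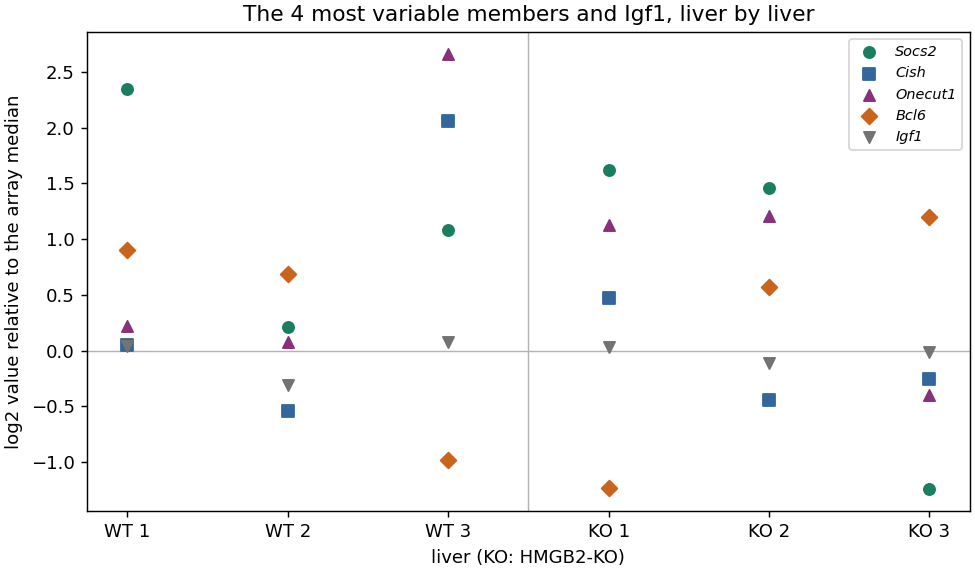
Log2 value relative to the array median (vertical axis) of Socs2, Cish, Onecut1, Bcl6 and Igf1 in each of the 6 livers (horizontal axis). Bcl6 is low in WT replicate 3 and HMGB2-KO replicate 1, Cish and Onecut1 peak in WT replicate 3, Socs2 is lowest in HMGB2-KO replicate 3, and Igf1 stays between -0.31 and 0.07.

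Other parts of growth hormone receptor signalling lay near the median gene. Of 16 signalling genes, 10 lay above and 6 below 0 with a median of 0.02, where 48.5% of all probe sets lay above. An unadjusted p under 0.05 in limma was reached by 1 gene, where 3.83% of all probe sets reached it. That count does not set the list apart from other probe sets. The gene was Irs2, an adaptor best known from insulin signalling, at -0.55, -0.85 and -0.54 in WT and 0.01, -0.40 and -0.19 in HMGB2-KO. Its change was 0.46 ± 0.16 (SE), with a limma adjusted p of 0.987. As deposited its unadjusted p was 0.0581, and without WT replicate 2 it was 0.0632. Jak2 stood at 0.04 ± 0.12 (SE), or -0.08 as deposited. Prlr, the prolactin receptor of the same cytokine receptor family, stood at 0.75, -0.29 and -0.09 in WT and -0.42, -1.15 and -0.23 in HMGB2-KO. Its change was -0.72 ± 0.33 (SE, limma unadjusted p 0.0600, adjusted p 0.987). As deposited the Prlr change was -0.84, with a limma unadjusted p of 0.0295. Without WT replicate 2 it was -0.93 (limma unadjusted p 0.0294). It was -0.41 without WT replicate 1 and -0.45 without HMGB2-KO replicate 2 (limma unadjusted p 0.195 and 0.2). The adaptor Sh2b2 stood at -0.37 ± 0.17 and the kinase Lyn at 0.22 ± 0.15 (SE). As deposited Sh2b2 stood at -0.49, with a limma unadjusted p of 0.0291 against 0.0666 after centring, and Lyn at 0.10.

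Among 18 measured brakes on the pathway, 11 lay above and 7 below 0, with a median of 0.09, or -0.03 without WT replicate 2. An unadjusted p under 0.05 in limma was reached by 1 of the 18, where 3.83% of all probe sets reached it, so the count does not set this list apart. It was Ptpn1, a tyrosine phosphatase that acts on JAK2, at -0.41, -0.72 and -0.49 in WT and -0.32, -0.23 and -0.08 in HMGB2-KO. Its change of 0.33 ± 0.14 (SE, limma adjusted p 0.987) went to 0.21 as deposited, with an unadjusted p of 0.169. Pias1, which restrains STAT proteins, lay at 0.05, 0.07 and 0.02 in HMGB2-KO and at -0.17, -0.13 and -0.17 in WT. The groups did not overlap, but the difference of 0.20 ± 0.11 (SE) had an unadjusted p of 0.106 in limma, whose variance model draws its very small spread towards that of other genes. The phosphatase gene Ptpn2 stood at 0.26 ± 0.16 and Rgs3 at -0.26 ± 0.17 (SE). As deposited Ptpn2 stood at 0.15 and Rgs3 at -0.38, the latter with a limma unadjusted p of 0.0361 against 0.173 after centring.

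In the IGF system, which carries and reads the IGF1 signal, 0 of 16 measured genes reached an unadjusted p under 0.05, where 3.83% of all probe sets did. 10 lay above and 6 below 0, with a median of 0.03. Igfbp3, the main carrier of IGF1 in blood, stood at 0.17, 0.05 and 0.32 in WT and 0.57, 0.26 and 0.33 in HMGB2-KO, with a change of 0.21 ± 0.14 (SE). The other named members were Igfbp2 at 0.30 ± 0.19, the protease gene Htra1 at 0.34 ± 0.15 and the IGF2 receptor gene Igf2r at 0.20 ± 0.17 (SE). The 24 measured hepatocyte transcription factors had a median of 0.07, with 14 above and 10 below 0. At an unadjusted p under 0.05 there were 0 of the 24, against the same 3.83% of all probe sets. The xenobiotic receptor gene Nr1i2 lay at -0.35 ± 0.19, the nuclear factor gene Tox at 0.31 ± 0.19 and the glucocorticoid receptor gene Nr3c1 at 0.21 ± 0.14 (SE).

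Female-biased liver genes lay mostly below the median gene in HMGB2-KO. Male-biased genes lay above it about as often as genes of the signalling, brake, IGF and transcription factor lists. Of 32 female-biased genes, 27 lay below 0, where 11424 of all 22203 probe sets did. The median of the 32 genes was -0.16, against -0.01 over all probe sets. The median was -0.10 without HMGB2-KO replicate 3 and -0.28 without WT replicate 3. 3 of the 32 reached an unadjusted p under 0.05, all lower, where 2.8% of all probe sets were lower. They were Cyp2c40, Cyp2c69 and the sulfotransferase Sult3a1, the last at 0.50, 0.61 and 0.02 in WT and -0.24, 0.00 and -0.23 in HMGB2-KO. Cyp2c40 and Cyp2c69 are counted again in the Cyp2c family below, so the lists are not separate observations. Sult3a1 missed that level without WT replicate 1 or 2 or HMGB2-KO replicate 1 or 3 (limma unadjusted p 0.0600 to 0.0667). A1bg lay at -0.26 ± 0.13 (SE, limma unadjusted p 0.0816). Of 32 probe sets for 29 male-biased genes, 21 lay above and 11 below 0. That share of 65.6% above 0 stood beside 48.5% of all probe sets. It was 58.3% to 62.5% in the signalling, brake, IGF and transcription factor lists. The male-biased median was 0.08, or 0.01 without WT replicate 2 and 0.003 without HMGB2-KO replicate 3. Cyp4a12a, a fatty acid hydroxylase of male liver, stood at 1.06, 1.01 and 1.10 in WT and 1.39, 1.41 and 1.55 in HMGB2-KO, with a change of 0.39 ± 0.12 (SE, limma unadjusted p 0.0102), or 0.28 as deposited with an unadjusted p of 0.0815. Susd4 stood at 0.38 ± 0.17, Ugt2b38 at 0.51 ± 0.28 and Ihh at -0.31 ± 0.15 (SE).

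Within the Cyp2c family, 6 of 14 measured genes were lower at an unadjusted p under 0.05, where 2.8% of all probe sets were. The family was listed with its lower values in these same data known, so the count is a description. In all, 12 genes lay below 0 and 2 above, Cyp2c55 at 0.39 ± 0.21 and Cyp2c44 at 0.04 ± 0.18 (SE). Cyp2c23, Cyp2c29 and Cyp2c53 were not found by symbol. Cyp2c40 stood at 1.29, 0.98 and 1.32 in WT and 0.18, -0.64 and -0.14 in HMGB2-KO, with a change of -1.40 ± 0.22 (SE, limma adjusted p 0.623). Cyp2c67, Cyp2c68 and Cyp2c69 lay at -0.99 ± 0.17, -1.05 ± 0.21 and -1.05 ± 0.22 (SE). Genotype groups did not overlap for 7 of the 14 genes, against 9.79% of all probe sets. Probes of such close paralogs may share signal. Whether these levels go with the axis from liver to liver was not tested.

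Hepatic loss of growth hormone receptor or STAT5 is known to fatten the liver and raise genes of fat uptake and storage, and these were read as a further list. Of 15 measured genes, 11 lay above and 4 below 0, where 48.5% of all probe sets lay above. The median was 0.28, or 0.12 without WT replicate 2 and 0.16 as deposited. It was 0.17 with values over 3 log2 units below all other arrays masked. Changes ran from -0.54 to 2.11, and 4 of the 15 genes stood in the top 5% by spread between livers. The fatty acid transporter gene Cd36 stood at 0.01, -0.31 and -0.12 in WT and 0.02, 0.39 and 0.26 in HMGB2-KO, with a change of 0.37 ± 0.15 (SE, limma unadjusted p 0.0438), and 0.25 with p 0.142 as deposited. The droplet gene Cidea lay on the other side at -0.06, 0.20 and 0.43 in WT and -0.25, -0.45 and -0.36 in HMGB2-KO (-0.54 ± 0.16 SE, limma unadjusted p 0.00915). Fabp4 stood at 0.35 ± 0.15 and Plin2 at 0.39 ± 0.18 (SE), with limma unadjusted p of 0.0514 and 0.0629. As deposited these p-values were 0.133 and 0.123, and with quantile normalization between arrays 0.0423 and 0.0447. Genotype groups did not overlap for 4 of the 15 genes, against 9.79% of all probe sets. They were Cd36, Fabp4 and Plin2, which were higher in HMGB2-KO, and Cidea, which was lower.

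As a description of which genes resembled members over the 6 arrays, the root mean square difference between profiles was taken after each gene's mean was removed. The closest of 21370 probe sets to Igf1 were Klhl26, Cd33, Ccdc107, Noxo1 and Tm4sf1, at 0.02 to 0.03. Flat profiles are close to each other by this measure. The closest to Socs2 were Glipr1l1, Sult2a7, Stard6, Map3k7cl and Gzmk, at 0.63 to 0.69, and none of the other 9 members was among them.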

How the data were processed

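Clariom S mouse arrays were hybridised with biotin-labelled cDNA from total liver RNA, per the labels' protocols. The authors deposited 1 table of processed values with 22206 rows, identical to the value table of the series record (largest difference 0). The sources used here do not give the software, the background correction, the log base or the build. Gene-wise centring was inferred from exact opposite pairs of values in 24.2% of genes, so no filter on dim genes was possible.

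Samples were grouped by genotype from their titles. The 22203 probe sets with a symbol (21371 with 1 symbol, 832 with several) were centred on each array's median and fitted with limma 3.58.1 (lmFit, eBayes) under R 4.3.3, two-sided, with a single term for genotype and Benjamini-Hochberg adjustment over all probe sets. On the deposited values the median gene stood at -0.12. The fit was tested on simulated data. Lists were described by counts and medians and not tested. The named genes were Hmgb2, the members, Jak2, Prlr, Igfbp3 and up to 4 genes with the smallest p of each list, of which 1 gene is not reported here. The members and lists were chosen with earlier results of these data known. Promoter windows were matched by symbol. Precision is limited by the small number of arrays.

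Alternatives were values as deposited, quantile normalization, array weights, robust eBayes, 1 averaged value per symbol, the title number as a block, a term for the livers numbered 3, masking of values over 3 log2 units below all other arrays (0 of them in members), and leaving out each array. The series record's table could not serve as an alternative because it holds the same values.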

Additional observations from a re-analysis of the deposited data

How the results depend on the processing

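The count of members at an unadjusted p under 0.05 was 0 under every alternative run, as was the count of probe sets past the adjusted threshold. Probe sets at an unadjusted p under 0.05 numbered 710 to 1094 with an array left out, and those lower in HMGB2-KO went from 621 to 1076 on values as deposited. Signs turned for values near 0 or with wide spread. As deposited, Igf1 stood at -0.088, Cux2 at -0.050 and Jak2 at -0.079, a shift of -0.12 that is the same for every gene and leaves them above the deposited median gene. With array weights Igf1 stood at -0.018, and with quantile normalization Bcl6 stood at 0.074. Leaving out an array gave -0.092 to 0.099 for Igf1, -1.11 to 0.32 for Socs2, -1.13 to 0.17 for Cish, -0.62 to 0.68 for Bcl6, -0.071 to 0.20 for Cux2, -0.49 to -0.033 for Igfals, 0.12 to 0.30 for Ghr, 0.015 to 0.23 for Stat5a, 0.072 to 0.31 for Stat5b, -0.80 to 0.50 for Onecut1 and -0.0083 to 0.088 for Jak2. The cause was not tested. The spread count of 4 members, with alternatives chosen after seeing the data, was 3 to 4 with an array left out, 3 without both livers numbered 3 and 4 on deposited, quantile-normalized or masked values. The shared numbers were not taken as pairs, since not every liver correlated best with its own number. Deviations of same-numbered livers correlated at 0.02, 0.13 and 0.27 over genes. Only HMGB2-KO replicate 1 correlated better with another number, at 0.11 with WT replicate 2. Whether the numbers mark pairs was not tested. With the number as a block, 1003 probe sets had an unadjusted p under 0.05, 0 passed the adjusted threshold and 0 members were called. With 3 arrays per genotype, differences in Socs2, Cish, Bcl6 and Onecut1 of the size seen in Cyp2c40 were within the intervals and not detectable.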

Other observations

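A few other genes of the lists spread as widely between livers as Socs2 and Cish, and were picked after their values were seen. Igfbp1, an IGF binding protein gene held down by insulin and raised by fasting, stood at -0.09, 0.75 and -2.11 in WT and 1.5, -0.14 and -0.82 in HMGB2-KO, with rank 125 of 22203 probe sets by spread. Its lowest liver, WT replicate 3, was also the liver with the highest Cish. Elovl3, a male-biased fatty acid elongase gene with a daily rhythm, stood at 0.11, -0.93 and 1.91 in WT and 0.36, 0.00 and 2.03 in HMGB2-KO. Cyp4a14, a female-biased fatty acid hydroxylase gene, stood at 0.04, -0.44 and -2.52 in WT and -1.00, -0.01 and -4.25 in HMGB2-KO. For Elovl3 both livers numbered 3 were high and for Cyp4a14 both were low, whereas Socs2, Cish, Onecut1 and Bcl6 set these livers apart from each other. None of the 3 genes reached an unadjusted p under 0.05 between genotypes in limma.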
